A study of Drosophila melanogaster with 2 samples.

Results

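The genes that encode the proteins of the cytoplasmic ribosome were examined in whole fruit flies with heterozygous loss of Taf1. The members were the genes whose name in the deposited table begins with RpL or RpS followed by a digit or P, together with *sta*, and they numbered 93 of the 17559 genes in the table. Names beginning with mRp, which belong to the mitochondrial ribosome, were left out, and the older name *oho23B* was not used in the table because that gene is listed as *RpS21*. Of the members, 54 belong to the large subunit and 39 to the small subunit. Where a protein is encoded by more than 1 gene, the copy with the higher mean level over both libraries was taken as the main copy, which gave 79 main copies, 11 second copies and 3 -like genes that were counted apart.

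RNA was taken from 10 pooled whole flies of each genotype, and 1 poly(A) library was made per genotype. The control was the line w1118. The other pool, labelled Taf1_1 heterozygous mutant, came from flies of a stock crossed to w1118, in which the mutant *taf1* allele was held over the balancer *TM3*, Sb together with *red* and *e* alleles. The mutant flies therefore share the w1118 background with the control on 1 parental side and can differ from it at other loci of the stock. Neither the labels nor the text of the study gives the sex or the age of the flies. With 1 library per genotype there is no replicate, so no p-value is given and each comparison is between these 2 libraries. The intervals given are 95% intervals and cover counting error only.

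The cytoplasmic ribosome is built from ribosomal RNA and a set of proteins that are needed in nearly equal numbers, and ribosomal protein mRNAs are among the abundant mRNAs of most cells. In Drosophila, loss of 1 gene copy of many ribosomal protein genes gives the Minute phenotype of slow development and thin bristles. Their promoters start at a pyrimidine-rich TCT element and depend on the TBP-related factor Trf2 rather than on TBP, the partner of Taf1 in the initiation complex TFIID. Several members are duplicated, and some of the copies, such as *RpL22-like* and *RpS19b*, are known for expression in the germ line.

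The libraries held 16753242 (control) and 32364756 (mutant) recovered reads. After TMM scaling, which trims extreme ratios before it compares libraries, the mutant counted as 1.61 times as large as the control, and a level in CPM is a gene's reads per 1000000 reads on that scale. *Taf1* had 1352 control and 1564 mutant reads, and its log2 ratio, always given as mutant over control, was -0.48 (-0.58 to -0.37). Of the tissue markers, the 20 testis genes summed to 6155 CPM in control and 6786 CPM in the mutant, and the 9 female genes to 19.3 and 15.6 CPM. At 1.5-fold with an interval free of equality, which 12.8% of all measured genes met as higher and 6.17% as lower, 6 of 9 measured markers of fat body and hemolymph were higher and 0 lower (median 0.74), and 5 of 7 of gut were higher and 1 lower (median 0.71). Of 5 measured accessory gland markers 2 were higher and 2 lower, and of 5 neuronal markers 0 were higher and 3 lower. The measured neuronal markers had a median transcript length of 6754.5 nt and a median log2 ratio of -0.83. Longer genes had lower ratios in general, and the longest of 10 length classes (median 5740 nt) stood at -0.27. How far length enters the neuronal values was not tested. Of 5 measured photoreceptor markers 0 were higher and 0 lower, and of 8 muscle markers 1 was higher and 0 lower. The neuronal marker *elav* was listed at 0. The mitochondrial genome accounted for 2.91% of reads in control and 15.2% in the mutant. The part of these differences in the results on ribosomal protein genes was not tested.

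Of the 93 members, 89 were measured, which means at least 20 reads in both libraries together, and the smallest of them, *RpS28a*, had 33 and 171 reads. The other 4 members, *RpS6*, *RpL41*, *RpL7-like* and *RpS10a*, were listed at 0 in both libraries. *RpS6* and *RpL41* encode proteins found in every ribosome, so a 0 here gives no level. All 4 overlap another protein-coding gene or a pseudogene in the BDGP6 annotation, as do 22 of the 89 other members. *RpL41* (2R, 24903416 to 24903935) lies wholly inside *NaCP60E* and *RpS10a* (3R, 27652760 to 27653363) wholly inside *tau*, and 0 of the 89 others lie inside another gene. *RpS6* overlaps the pseudogene *CR33222* and *RpL7-like* overlaps *CG34164* on the same strand. They were 4 of 4422 genes of the table with no read in either library.

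As a group, ribosomal protein genes stood above control in the *taf1* heterozygotes. Calls required a difference of at least 1.5-fold and an interval without equality. By this rule 74 of the 89 measured members were higher and 0 were lower, against 12.8% higher and 6.17% lower over all 11606 measured genes. The median log2 ratio of the measured members was 0.73, against 0.0040 over all measured genes, and 87 of 89 members lay above 0. Members took 4.20% of all control reads and 6.07% of all mutant reads, and 4.32% and 7.15% once reads of the mitochondrial genome were set aside. With scaling by total reads 33 members were higher, against 6.94% of all genes, and with the qPCR reference genes *eEF1alpha2* and *Act5C* set to equality 29 were higher, against 6.47%. Those scalings moved the median of all genes to -0.26 and -0.30.

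**Figure D1:**
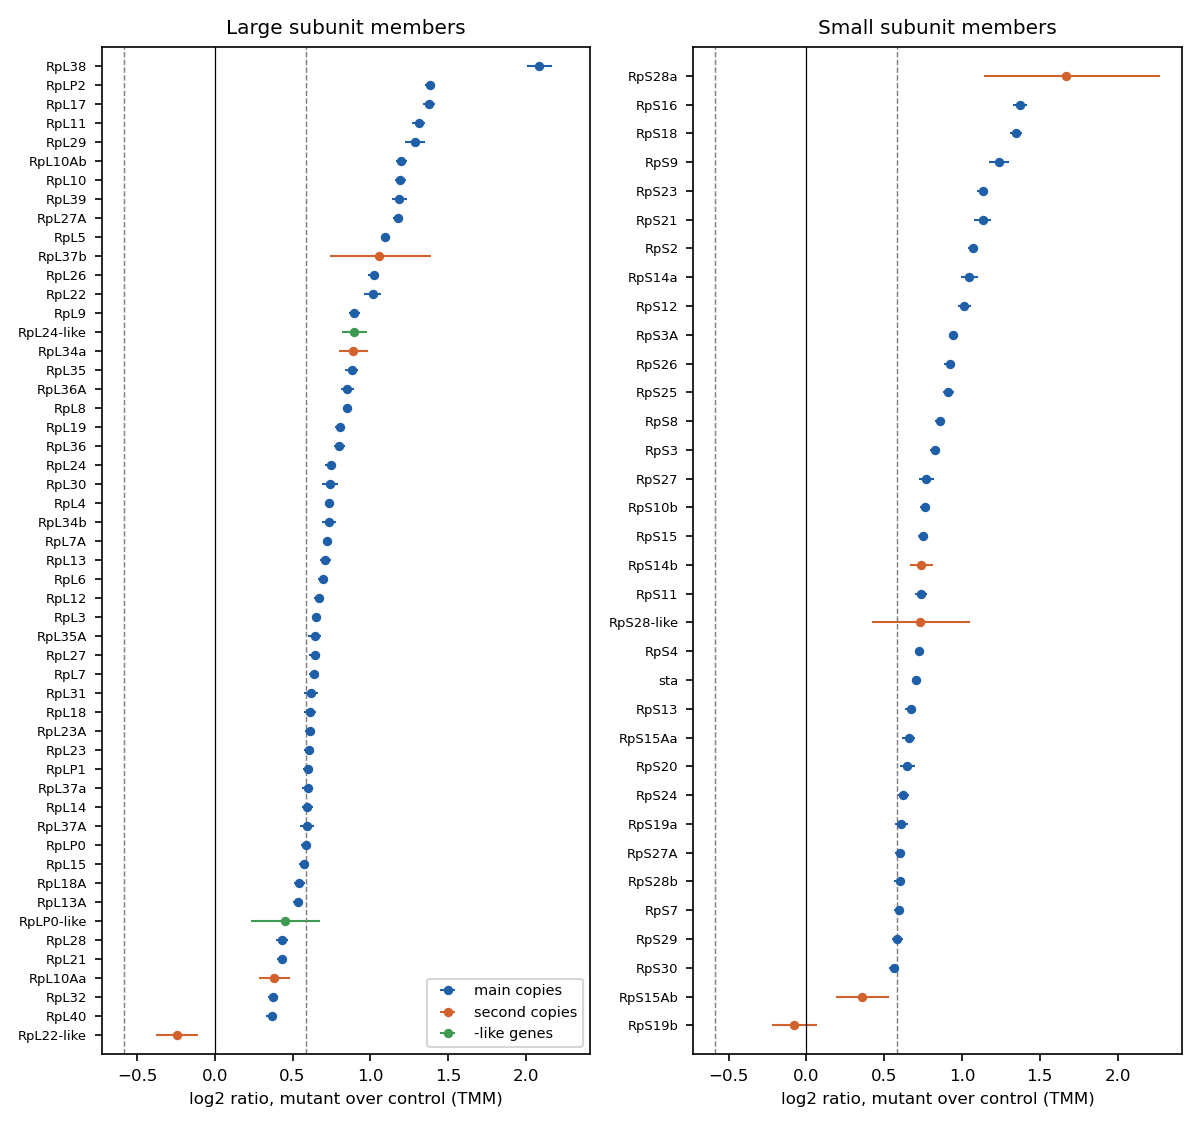
Log2 ratio of mutant over control for 86 of the 89 measured members, large subunit on the left and small subunit on the right, with 95% counting intervals as bars. Dashed lines mark 1.5-fold in either direction. All 75 main copies drawn lie above 0, *RpL38* is highest at 2.08, and *RpL22-like* and *RpS19b* lie below 0.

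Among the 77 measured main copies, 68 were higher and the interval of every one lay above 0. Their median log2 ratio was 0.74, the middle part of the distribution ran from 0.61 to 1.01, and the whole range from 0.37 to 2.08. Their median level was 528 CPM in control and 919 CPM in the mutant. Of these genes, 21 were at least 2-fold higher, 47 lay from 1.5-fold to 2-fold, and 9 lay below 1.5-fold. Calls near the limit are not firm, since the intervals of 14 of the 74 called members reach below 1.5-fold, and 60 lie wholly above it. The 2 subunits lay close together, with a median of 0.72 over 46 large subunit main copies (39 higher) and 0.76 over 31 small subunit main copies (29 higher).

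**Figure D2:**
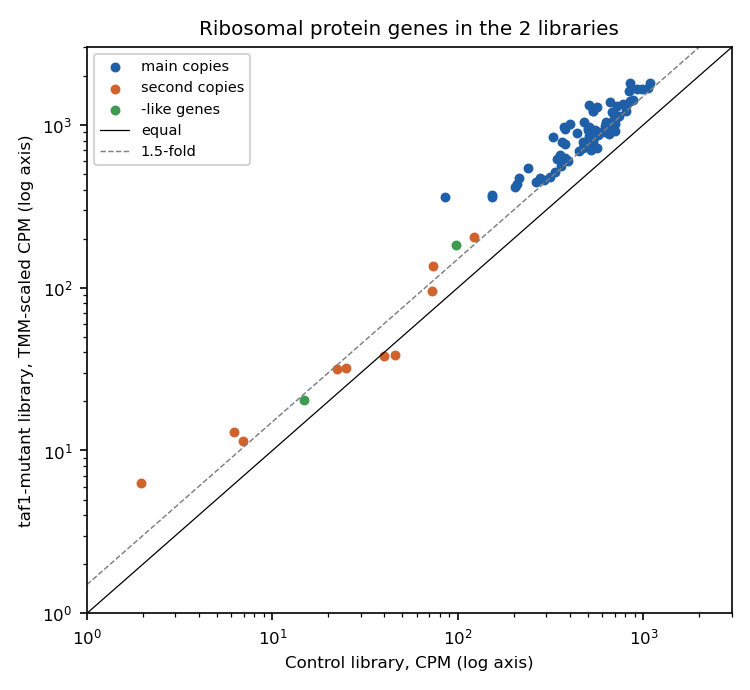
Level of each measured member in the control library (x axis) and the *taf1*-mutant library (y axis), in TMM-scaled CPM on log axes. The main copies run from 84.8 to 1087 CPM in control and from 359 to 1809 CPM in the mutant, and all lie above the line of equality.

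The main copies did not differ from control by a common factor. The standard deviation of their log2 ratios over genes was 0.30, while the median counting half-width of a single ratio was 0.036 and the widest was 0.081. The members therefore differed from each other by more than counting error, and the spread between preparations is unknown. Per kilobase of transcript, main copies ran from 120 to 1202 CPM in control and from 375 to 2199 CPM in the mutant, and the standard deviation of the log2 level per kilobase was 0.57 in control and 0.47 in the mutant. Across the 77 genes, Spearman's coefficient between control and mutant levels per kilobase was 0.79. The coefficient between the log2 ratio and the control level per kilobase was -0.43, 2 measures that share the control reads.

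In the large subunit, *RpL38* differed most. This small protein at the base of the subunit is known in the mouse for an effect on the translation of Hox mRNAs. *RpL38* (2R, 4515388 to 4516458) had 1421 control and 9698 mutant reads, or 84.8 and 360 CPM, a 4.24-fold difference (log2 ratio 2.08, 2.00 to 2.17). It was the main copy with the lowest level per kilobase in control, at 120 CPM, and it stood at 509 CPM in the mutant. The next members were *RpLP2* and *RpL17*, a protein that lines the exit tunnel of the growing chain. *RpL17* had 6256 and 26118 reads, from 373 to 969 CPM (log2 ratio 1.38, 1.34 to 1.42). Other members more than 2-fold higher included *RpL29*, *RpL10* and *RpL39*. *RpL29* had 2554 and 10019 reads (1.29). *RpL10*, a late-joining protein near the peptidyl transferase centre, had 9408 and 34604 reads (1.19). *RpL39*, which also lines the exit tunnel, had 4013 and 14693 reads (1.19). *RpL39* and *RpL12* overlap on opposite strands, and *RpL12* was at 0.67.

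The proteins of the P stalk, which recruits translation factors to the large subunit, did not move together. *RpLP0*, the base of the stalk, had 11734 reads in control and 28333 in the mutant, and *RpLP1* had 11292 and 27486. Both lay at the 1.5-fold limit, with log2 ratios of 0.59 and 0.60, and their calls are not firm. *RpLP0* fell below the limit with the size factors of DESeq2 (0.58), and both fell below it with the scaling of the deposited values (0.55 and 0.56), with total reads (0.32 and 0.33), under the qPCR references (0.29 and 0.30) and against the nearest genes. *RpLP2*, the partner of RpLP1 in the stalk dimers, had 8533 and 35795 reads (1.38, 1.35 to 1.42). Reads of *RpLP1* per read of *RpLP0* were 0.962 in control and 0.970 in the mutant, while reads of *RpLP2* per read of *RpLP1* were 0.756 and 1.30. That last change is 0.79 on the log2 scale (0.74 to 0.83) and does not depend on how the libraries are scaled. *RpL5* and *RpL11*, which enter the subunit as partners of a small ribosomal RNA, were both more than 2-fold higher. *RpL5* went from 14181 to 48762 reads (1.10) and *RpL11* from 6364 to 25383 (1.31), and reads of *RpL11* per read of *RpL5* were 0.449 and 0.521.

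At the low end of the large subunit stood *RpL40*, *RpL32* and *RpL21*, and these genes were not called. *RpL40*, which is made as a fusion with ubiquitin, had 9369 reads in control and 19430 in the mutant (0.37, 0.33 to 0.40). *RpS27A*, the ubiquitin fusion of the small subunit, had 11059 and 27025 reads (0.60), and its annotated span overlaps *Ip259* on the same strand. *RpL21* was at 0.43 and *RpL28* also at 0.43. *RpL3* and *RpL7A*, the only members among the 100 genes with the most reads in the control library, were higher at 0.65 and 0.72. In the mutant library 14 members were among the 100 genes with the most reads, led by *RpL5* at rank 40.

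*RpL32* was used by the study as a qPCR reference and its primers are shown because the gene stands apart from most other members. Both are given from 5′ to 3′ as the study lists them, in lower case with nothing marked.
RpL32 forward: atcggttacggatcgaacaa
RpL32 reverse: gacaatctccttgcgcttct
*RpL32* (FBgn0002626; 3R, 30045229 to 30046161 of BDGP6) had 11792 control and 24619 mutant reads, or 704 and 913 CPM. The mutant level was 129.8% of control (log2 ratio 0.38, 0.34 to 0.41). Of the other main copies, 75 had a higher log2 ratio and 1, *RpL40*, had a lower ratio. Set against *RpL32*, *Taf1* had 114.7 reads per 1000 reads in control and 63.5 in the mutant, which is 55.4% of control (51.4 to 59.8). Set against the sum of all members, *Taf1* was at 41.4% of control. With TMM scaling it was at 71.9%, which did not reach the 1.5-fold limit for a call. The transcript of *Taf1* is 6649.5 nt long and that of *RpL32* 662.5 nt, and longer genes had lower ratios in general. The part of length in these percentages was not tested.

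In the small subunit, *RpS16* and *RpS18*, proteins of the head, had the highest main copy ratios. *RpS16* went from 5472 to 22791 reads, or from 327 to 846 CPM (1.37, 1.33 to 1.42), and *RpS18* from 6710 to 27417 reads, or from 401 to 1017 CPM (1.34, 1.31 to 1.38). *RpS9* went from 2552 to 9678 reads (1.24). *RpS23*, which reaches into the decoding centre, *RpS21* and *RpS2* lay between 1.07 and 1.13. *sta*, which encodes the small subunit protein related to the laminin receptor, had 14634 reads in control and 38417 in the mutant (0.71). The lowest main copies were *RpS30*, which is made as a fusion with a ubiquitin-like protein, at 0.56, *RpS29* at 0.58 and *RpS7* at 0.59, and the first 2 of these were not called. No small subunit main copy was as low as *RpL40* or *RpL32*.

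Of the 11 second copies, which belong to 10 families, 10 were measured. Of these, 5 were higher and 0 lower, against 12.8% higher and 6.17% lower over all measured genes. Among other genes in the length range of the main copies 18.5% were higher. The log2 ratios of the second copies ran from -0.24 to 1.67 around a median of 0.62. *RpL22-like* had 771 control and 1047 mutant reads, or 46.0 and 38.8 CPM (-0.24, -0.38 to -0.11). Its main copy *RpL22* had 3422 and 11121 reads, or 204 and 413 CPM (1.01, 0.96 to 1.07). *RpS19b* was at 40.1 and 38.0 CPM (-0.08, -0.22 to 0.07), and *RpS19a* at 393 and 599 CPM (0.61). *RpL22-like* and *RpS19b* were the measured members with a log2 ratio below 0, and neither reached the limit for a call.

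Because both copies of a pair were counted in the same library, the share of the second copy does not depend on the scaling. *RpL22-like* made up 18.4% of the reads of its pair in control (17.2 to 19.6) and 8.60% in the mutant (8.11 to 9.12). *RpL10Aa* made up 12.0% and 7.19%, *RpS19b* 9.27% and 5.97%, and *RpS14b* 37.0% and 32.2%. *RpS15Ab* made up 6.09% and 5.02%. In these 5 pairs the log2 ratio of the second copy minus that of the main copy lay below 0 with its interval, from -1.26 (-1.40 to -1.11) in the *RpL22* pair to -0.30 (-0.47 to -0.12) in the *RpS15A* pair.
In 3 pairs the share of the second copy was larger in the mutant library. *RpS28a* went from 0.369% to 0.781% of its pair with *RpS28b*, a difference of 1.09 (0.55 to 1.63) from 33 and 171 reads. *RpL37b* went from 1.08% to 1.48% and *RpL34a* from 16.2% to 17.7%. The pair of *RpS28-like* and *RpS28b* was at 1.29% and 1.41%, and its interval included 0. *RpS28-like* overlaps *CG3769* on the same strand, and in closely related pairs such as *RpS14a* and *RpS14b*, tandem neighbours on the X chromosome, reads could have been divided by the counting, so their split is uncertain. In whole flies, fewer cells of a type and less RNA per cell cannot be told apart, and the part of the germ line in the lower shares was not tested. The 18 measured testis markers had a median log2 ratio of 0.06 with 5 higher and 0 lower. The 5 measured germ cell markers had a median of -0.34 with 0 higher and 1 lower, and 4 lay below 0 and 1 above. The 2 marker lists differ in length and level. Median transcript length was 2816.5 nt for germ cell and 872.5 nt for testis markers, and median control level 7.34 and 222 CPM. Over all measured genes 12.8% were higher and 6.17% lower. The germ cell markers summed to 78.3 CPM in control and 62.7 CPM in the mutant.

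**Figure D3:**
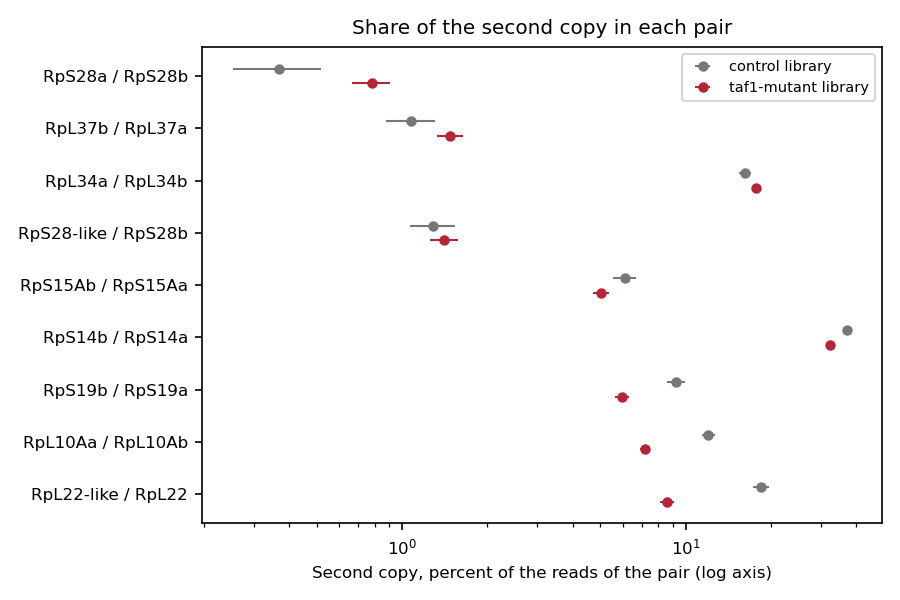
Reads of the second copy as a percent of the reads of second and main copy together, on a log axis, for 9 measured pairs, with exact binomial 95% intervals as bars. Grey points are the control library and red points the mutant library. The *RpL22-like* share goes from 18.4% to 8.60%, and the *RpS28a* share goes the other way from 0.369% to 0.781%.

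The -like genes *RpL24-like* and *RpLP0-like* are relatives whose yeast counterparts act in the assembly of the large subunit. *RpL24-like* had 1645 reads in control and 4929 in the mutant and was higher (0.90, 0.82 to 0.98). *RpLP0-like* had 249 and 548 reads and was not called (0.45, 0.23 to 0.67).

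By position, the 16 measured main copies on 2R had a median log2 ratio of 0.97 and the 16 on 3R a median of 0.65, while other genes of the 2 arms had medians of 0.01 and -0.01. By the 1.5-fold rule 15 of the 16 on 2R and 12 of the 16 on 3R, the arm of *Taf1*, were higher. Of other measured genes on these 2 arms, 13.6% and 11.2% were higher. The part of linkage to *Taf1* was not tested. The medians on X, 2L and 3L were 0.72, 0.74 and 0.79. The 28 measured main copies with small nucleolar RNA genes inside their span, which are released from introns, had a median of 0.74, and the 49 without had 0.73.

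Ribosomal protein transcripts are short, and shorter genes had higher ratios in general. Over 10 length classes of other measured genes, the median log2 ratio went from 0.16 at a median length of 521 nt to -0.27 at 5740 nt. The measured main copies had transcripts of 288 to 1512 nt, and 18.5% of the 4863 other genes in that range were called higher and 5.98% lower, with a median of 0.14. Of the 238 other genes that also lay in the CPM range of the main copies, 23.1% were called higher, 3.78% were lower and the median was 0.24. When each ratio was set against the median of the 200 genes nearest in length and level, 21 members were higher, the median of the main copies was 0.28, and 81 of 89 members lay above 0. That pool holds many members, and no share over all genes is given for it. With the members left out of it, an alternative chosen after seeing the data, 37 were higher, against 10.6% of all genes, the median of the main copies was 0.52, and 87 of 89 members lay above 0. Among the main copies themselves, Spearman's coefficient of the log2 ratio with transcript length was 0.02 over 77 genes. The part of transcript length in the higher level of the group was measured only in these ways, and library preparation and genotype cannot be told apart.

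**Figure D4:**
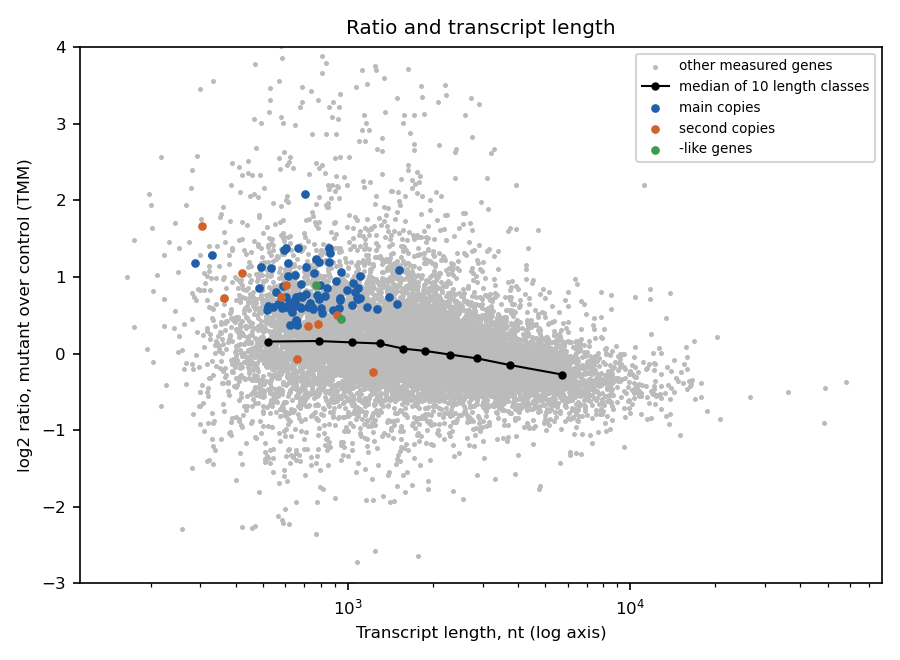
Log2 ratio of mutant over control against annotated transcript length (log axis) for the measured genes with a length. Black points join the medians of 10 length classes of other genes, from 0.16 to -0.27, and 43 genes lie outside the plotted range. The main copies lie above the median line of genes of their length.

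Other genes of translation differed less from control than the ribosomal protein genes did in their medians. Of 71 measured genes for mitochondrial ribosomal proteins, 22 were higher and 0 lower, around a median of 0.38, and *mRpS14* was highest at 1.29, followed by *mRpS33* at 1.18 and *mRpL20* at 1.17. Of 49 measured translation factor genes, 7 (14.3%) were higher and 1 lower (median 0.25), a share near the 12.8% higher over all measured genes. *eEF1beta*, an exchange factor of the elongation factor that delivers tRNA, had 3657 reads in control and 13457 in the mutant (1.19), *eIF3i* was at 0.93 and *eIF3f1* at 0.83, and *eIF4E6* was lower at -0.71 with 66 and 65 reads. Of 27 measured genes of ribosome assembly, 3 (11.1%) were higher and 0 lower (median 0.23), also near the share over all genes. The 3 were *CG7637*, which encodes a protein of the pseudouridylation particles, at 1.02, the nucleolar GTPase gene *Non1* at 0.68 and *nclb* at 0.61. Of 18 regulators of growth and of ribosomal protein transcription, 15 were measured, and 0 of these were called in either direction (median -0.02). *Myc*, named *dm* in the table, had 0 reads in both libraries and was not measured. *Trf2*, with a long transcript of 7082.5 nt, was at -0.52, and the promoter factors *M1BP* and *Dref*, the kinase *S6k* and *Xrp1*, which acts in the response to Minute mutations, lay between -0.06 and 0.05. The genes of this last list are named outside the rule for named genes.

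**Figure D5:**
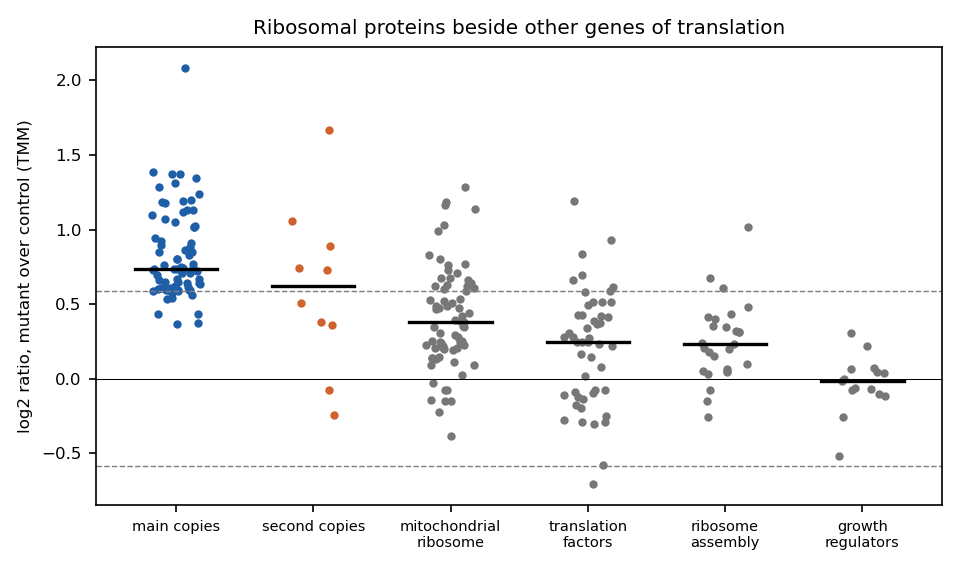
Log2 ratio of mutant over control for single genes in 6 lists, with the median of each as a black bar and dashed lines at 1.5-fold. The medians are 0.74 for main copies, 0.62 for second copies, 0.38 for mitochondrial ribosomal proteins, 0.25 for translation factors, 0.23 for ribosome assembly and -0.02 for growth regulators.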

How the data were processed

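RNA of 10 whole flies per genotype was sequenced by a genomics core on an Illumina HiSeq after a stranded mRNA kit, on genome build BDGP6 per the submitters' notes. The sources used here do not name the aligner, counter, strand setting or annotation release. What the authors deposited is a signal in which each library's gene reads were divided by a factor of that library. Reads were recovered by taking the smallest positive value as 1 read, which made 100% of values whole within 0.001 of a read. No count model could be fitted, with 0 residual degrees of freedom.

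Reads were scaled by TMM (edgeR 4.0.16, R 4.3.3). Log2 ratios used a prior count of 0.5. Intervals of ratios are exact conditional binomial (Clopper-Pearson), those of shares exact binomial, and those of differences between 2 members or between *Taf1* and *RpL32* normal approximations on the log scale. Names were matched to a BDGP6 annotation for 17386 genes, and lengths are medians over annotated transcripts. Calculations were tested on simulated reads (Python 3.11.15, scipy 1.17.1). Within each subunit the 3 highest and 3 lowest main copies, duplicated families and functional groups were to be named, and from other lists the 3 called genes at either end with 50 reads or more. Genes such as *RpL29*, *RpL10*, *RpL39*, *RpL28* and *RpS23* were named after their values were seen. Members and lists were chosen with earlier results of these data known. Promoter sequences were not analysed here. A few members are counted in totals and medians but are not reported here one by one.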

Additional observations from a re-analysis of the deposited data

How the results depend on the processing

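No paired analysis was possible because each genotype has 1 library, and for the same reason no replicate could be left out. Of 17 alternatives, 0 turned the direction of a median or of a called gene. Some main copies that were not called did turn. Against the 200 nearest genes in length and level, *RpL32* was at -0.21, *RpL40* at -0.20 and *RpL21* at -0.16. In that setting 71 of 77 main copies lay above 0, and with the members left out of the pool 77 of 77 did. Scaling by total reads gave 33 members higher and medians of 0.47 for all members, 0.47 for main copies, 0.35 for second copies, 0.45 for the large and 0.50 for the small subunit. Scaling to the qPCR reference genes *eEF1alpha2* and *Act5C* gave 29 higher and 0.43, 0.44, 0.32, 0.42 and 0.46 in the same order. Against the 200 nearest genes in length and level, a pool that holds many members, 21 were higher and the medians were 0.29, 0.28, 0.43, 0.25 and 0.33. With the members left out of that pool, an alternative chosen after seeing the data, 37 were higher and the medians were 0.52, 0.52, 0.44, 0.48 and 0.57. The scaling of the deposited values gave 60 members higher, against 11.6% of all genes. Its medians were 0.69 for all members, 0.70 for main copies, 0.68 for the large and 0.72 for the small subunit. Total reads without the mitochondrially encoded genes gave 55 higher, against 10.8% of all genes, and medians of 0.66, 0.67, 0.65 and 0.69. With a 2-fold limit 23 members were higher. For this limit, and for the 21 members against the pool that holds members, no share over all genes is given here. With no fold limit 1 member, *RpL22-like*, was lower. The cause of these shifts was not tested beyond the change of scale itself. The size factors of DESeq2 1.42.0, the upper quartile, TMM without the members or without mitochondrially encoded genes, other read minimums and other prior counts left the number of members called and the medians close to those given. Over all genes, higher genes made up 67.4% of the calls under TMM, 26.6% under total reads and 23.0% under the reference genes. For 41 named members, 87 of 685 recomputed values lost the call and 11 gained it. The low reads of *RpS28a*, *RpL37b* and *RpS28-like* limit those ratios most.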
